A study of Homo sapiens with 18 samples.

Results

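The genes described here are 10 enzymes and receptors of prostaglandin and arachidonic acid metabolism. They were taken by gene name from a table of raw counts, and 10 of the 10 were among its 19883 genes. Of these, 15462 genes passed the filter on low counts, and all 10 did. The counts came from mRNA sequencing of 3 human head and neck squamous cell carcinoma (HNSCC) lines, Detroit 562 (from a metastasis of a pharyngeal tumor), FaDu (a primary hypopharyngeal tumor) and SCC-9 (a primary tumor of the tongue). Each line was left untreated (control) or was given 50 ng/mL hepatocyte growth factor (HGF), the ligand of the Met receptor, and 3 libraries were made of each of the 6 groups. The sample records give a treatment of 16 h and the series record 48 h. The medium differed between lines. That of SCC-9, DMEM F12, held 400 ng/mL of the glucocorticoid hydrocortisone, with and without HGF, and the other lines were kept in MEM-α. Each tumor site is represented by 1 line, so a difference between lines is one between these cultures.

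Arachidonic acid is a fatty acid held in membrane phospholipids, from which phospholipase A2 releases it. Cyclooxygenases turn it into prostaglandin H2, which terminal synthases convert to prostaglandin E2 and other prostanoids, and prostaglandin E2 acts on G protein-coupled receptors until it is oxidized. Lipoxygenases take the same fatty acid into leukotrienes and hydroxy fatty acids. In squamous epithelium and its tumors the inducible cyclooxygenase is the best known member of this pathway. Among the 10 genes, PLA2G4A codes for cytosolic phospholipase A2, PTGS1 and PTGS2 for the constitutive and the inducible cyclooxygenase (COX-1 and COX-2), and PTGES for the microsomal prostaglandin E synthase. HPGD codes for the dehydrogenase that inactivates prostaglandin E2, and PTGER4 for the prostaglandin E receptor EP4. ALOX5 codes for the enzyme that starts leukotriene synthesis, ALOX12 for the platelet-type lipoxygenase, ALOX12B for a lipoxygenase of the skin barrier and ALOX15B for an epithelial lipoxygenase.

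The start regions of both cyclooxygenase genes and of PTGES are shown first. All 3 were called with HGF in Detroit 562, as were PTGER4 and ALOX5, whose start regions are not shown. Each window holds 250 bases before and 50 after a RefSeq start site in GRCh38.p14, in the direction of transcription. The windows are chr1:186680374-186680673 on the minus strand for PTGS2, chr9:122370283-122370582 and chr9:122375052-122375351 on the plus strand for 2 starts of PTGS1, and chr9:129752993-129753292 on the minus strand for PTGES. Capitals mark matches to a short list of motifs, searched on both strands.
PTGS2: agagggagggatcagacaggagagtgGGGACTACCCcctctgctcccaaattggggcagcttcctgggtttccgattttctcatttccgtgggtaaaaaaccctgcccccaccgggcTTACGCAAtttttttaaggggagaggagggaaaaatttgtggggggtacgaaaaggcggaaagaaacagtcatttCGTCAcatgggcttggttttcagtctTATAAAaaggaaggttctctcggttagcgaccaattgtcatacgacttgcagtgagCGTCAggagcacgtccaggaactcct
PTGS1, first start: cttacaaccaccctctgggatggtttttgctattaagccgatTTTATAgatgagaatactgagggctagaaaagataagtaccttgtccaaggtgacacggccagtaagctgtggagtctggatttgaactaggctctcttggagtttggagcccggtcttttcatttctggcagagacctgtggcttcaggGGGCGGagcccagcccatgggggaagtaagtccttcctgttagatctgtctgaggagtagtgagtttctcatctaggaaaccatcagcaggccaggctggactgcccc
PTGS1, second start: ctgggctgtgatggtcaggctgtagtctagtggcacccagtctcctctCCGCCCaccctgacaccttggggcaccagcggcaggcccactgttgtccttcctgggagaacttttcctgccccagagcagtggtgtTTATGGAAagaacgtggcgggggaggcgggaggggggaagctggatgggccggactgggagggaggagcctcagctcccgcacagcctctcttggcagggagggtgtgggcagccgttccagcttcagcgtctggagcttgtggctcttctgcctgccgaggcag
PTGES: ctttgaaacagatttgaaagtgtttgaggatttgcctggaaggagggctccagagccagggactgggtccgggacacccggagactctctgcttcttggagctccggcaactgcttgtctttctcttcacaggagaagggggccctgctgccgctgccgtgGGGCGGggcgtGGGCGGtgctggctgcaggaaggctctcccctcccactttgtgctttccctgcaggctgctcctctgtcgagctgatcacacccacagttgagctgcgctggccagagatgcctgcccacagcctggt
The motifs were the TATA box (TATAAA) and the GC box (GGGCGG). They also included the core of a cAMP response element (CGTCA), a site of C/EBP factors (TTNNGNAA) and the E-box (CACGTG). Also searched were an AP-1 motif, TGA and TCA with any base between them, and an NF-κB motif, GGG and CC around any 2 bases, T and any 2 bases. The PTGS2 window held TATAAA with its first base at -32, CGTCA at -58 and again at 25, TTNNGNAA at -133 and the NF-κB motif at -224, counted from the start site. It held no GGGCGG. The PTGES window held GGGCGG at -89 and -78 and none of the other letters. The first PTGS1 window held GGGCGG at -58 and, on the opposite strand, TATAAA at -208, and the second held TTNNGNAA at -115 and GGGCGG on the opposite strand at -202. Such matches are common: of 35114 windows of 300 bases, 11.5% held TATAAA, 45% GGGCGG, 24.6% CGTCA, 22% the NF-κB motif and 36.8% TTNNGNAA. The AP-1 motif, held by 7.71% of all windows, and CACGTG, held by 7.26%, were in none of these 4. A match describes the letters of a window and not a bound factor. Windows were found for 8 of the 10 genes, and none for ALOX5. The PTGER4 window held the NF-κB motif at -244 and, on the opposite strand, GGGCGG at -179, -155, -138 and -93.

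Depth was even across the series, with 35292392 to 43979921 counts on genes per library (median 40107294.5), and the lowest correlation of log2 counts per 1000000 (CPM) between libraries of 1 group was 0.988. The labels number the libraries of each group, and the methods state that the experiment was repeated. Neither says that a number stands for a repeat, so p-values measure the spread between these libraries, which may be partly technical. DUSP6, a feedback phosphatase of the MAP kinase pathway that HGF is known to induce, was called higher with HGF in Detroit 562 (log2 fold change 1.53) and FaDu (1.44). In SCC-9 it was higher in 3 of 3 pairs without overlap of the groups and was called with the replicate block alone (0.48, adjusted p = 0.00762, against 0.47 and adjusted p = 1 without it). SPRY4, a feedback inhibitor of the same pathway, was called in Detroit 562 (1.95), and in FaDu (1.80, adjusted p = 0.000255) and SCC-9 (0.88, adjusted p = 0.00313) with the block alone. Of 8 squamous epithelium markers, 8 were above 1 CPM in every control library of each line. Libraries with the same replicate number varied together within each line, and a fit with the number as a block is given wherever it changed a call. Throughout, genes with an adjusted p under 0.1 whose log2 fold change was 0.4 or more in either direction were called. All adjusted p values are from quasi-likelihood tests in edgeR, adjusted by Benjamini-Hochberg for the 15462 genes, unless DESeq2 is named. In a bulk sample, fewer cells of a type and less RNA per cell cannot be told apart.

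In Detroit 562, HGF was followed by opposite changes of the cyclooxygenases. PTGS2 was called 2.42-fold higher and PTGS1 2.86-fold lower, and 3 further genes of the set were called, with PTGES and ALOX5 lower and PTGER4 higher. The 5 called genes of 10 compare with 17.9% of all genes tested (6.15% called higher and 11.7% called lower). The same 5 genes were those whose control and HGF-treated libraries did not overlap, which was so for 38.2% of all genes. The median log2 fold change of the 10 genes was -0.36, against -0.0059 over all genes. It lies between HPGD (-0.33) and ALOX12B (-0.38), neither of them called. ALOX12B, at 3 to 20 counts per library, and ALOX15B (-1.10), at 0 to 2, were near the floor, so the median is no firm sign of a shift.

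PTGS2, the inducible cyclooxygenase, measured 34.9, 39.1 and 88.7 CPM in the 3 Detroit 562 control libraries and 94.2, 90.4 and 209 CPM in those with HGF, in the order of the replicate numbers. The HGF-treated libraries lay above every control library, and the library numbered 3 was the highest of each group. The log2 fold change was 1.27 (SE 0.354, adjusted p = 0.0163). Without the HGF library numbered 3 the call was lost (0.77, adjusted p = 0.119), and without both libraries numbered 3 it was 1.32 (adjusted p = 0.00274), a setting added after the values were seen.

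PTGS1, the constitutive cyclooxygenase, moved the other way. It measured 46.5, 44.2 and 28.3 CPM in control and 15.3, 17.1 and 9.01 CPM in HGF-treated Detroit 562. Here the library numbered 3 was the lowest of each group, and the highest HGF-treated library was still below the lowest control. The log2 fold change was -1.52 (SE 0.338, adjusted p = 0.00539), and it lay between -1.71 and -1.29 with any 1 library left out, called each time.

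The counts of PTGS2 relative to those of PTGS1 were 0.751, 0.885 and 3.13 in control Detroit 562 and 6.14, 5.28 and 23.2 with HGF. PTGS1 thus had the larger count in 2 of the 3 control libraries, and PTGS2 in every HGF-treated one. The exons annotated for the genes are of similar length, 5784 bases for PTGS1 and 5484 for PTGS2. The counting included introns, however, and the whole genes span 25174 bases for PTGS1 and 8637 for PTGS2. The ratios are therefore of counts and not of transcript levels.

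PTGES, whose product makes prostaglandin E2 from the cyclooxygenase product, measured 68.1, 78.4 and 66.5 CPM in control and 48.2, 48.1 and 24.9 CPM in HGF-treated Detroit 562. All HGF-treated libraries were below all controls, the one numbered 3 the most. The log2 fold change was -0.81 (SE 0.201, adjusted p = 0.00900). PTGER4, the EP4 receptor gene, measured 2.90, 2.64 and 3.13 CPM in control libraries and 4.01, 3.63 and 6.18 CPM with HGF, a log2 fold change of 0.67 (SE 0.251, adjusted p = 0.0602). This call rested on few libraries: it was lost without control 1 (adjusted p = 0.154), without control 2 (0.169), without HGF 3 (0.41 on the log2 scale, adjusted p = 0.295) and without both libraries numbered 3 (0.47, adjusted p = 0.264). PTGER4 overlaps TTC33, which lies on the opposite strand, and reads were counted by strand.

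The genes at the ends of this route, release of the fatty acid and inactivation of the prostaglandin, were not called. PLA2G4A, the phospholipase, was nearly even over the 6 Detroit 562 libraries, at 43.7, 44.3 and 45.4 CPM in control and 44.5, 47.8 and 49.0 CPM with HGF (log2 fold change 0.08, 95% confidence interval -0.14 to 0.31). HPGD, the inactivating dehydrogenase, measured 12.4, 10.2 and 10.5 CPM in control libraries and 6.26, 7.61 and 12.5 CPM with HGF, where the library numbered 3 stood just above the controls and the other 2 below them. Its log2 fold change was -0.33 (SE 0.253, adjusted p = 0.355), and it was called lower without HGF 3 (-0.67, adjusted p = 0.0740) and without both libraries numbered 3 (-0.70, adjusted p = 0.0732). The ratio of PTGES to HPGD counts was 5.50, 7.70 and 6.31 in control and 7.70, 6.32 and 2.00 in HGF-treated libraries, so the groups overlapped.

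**Figure D1:**
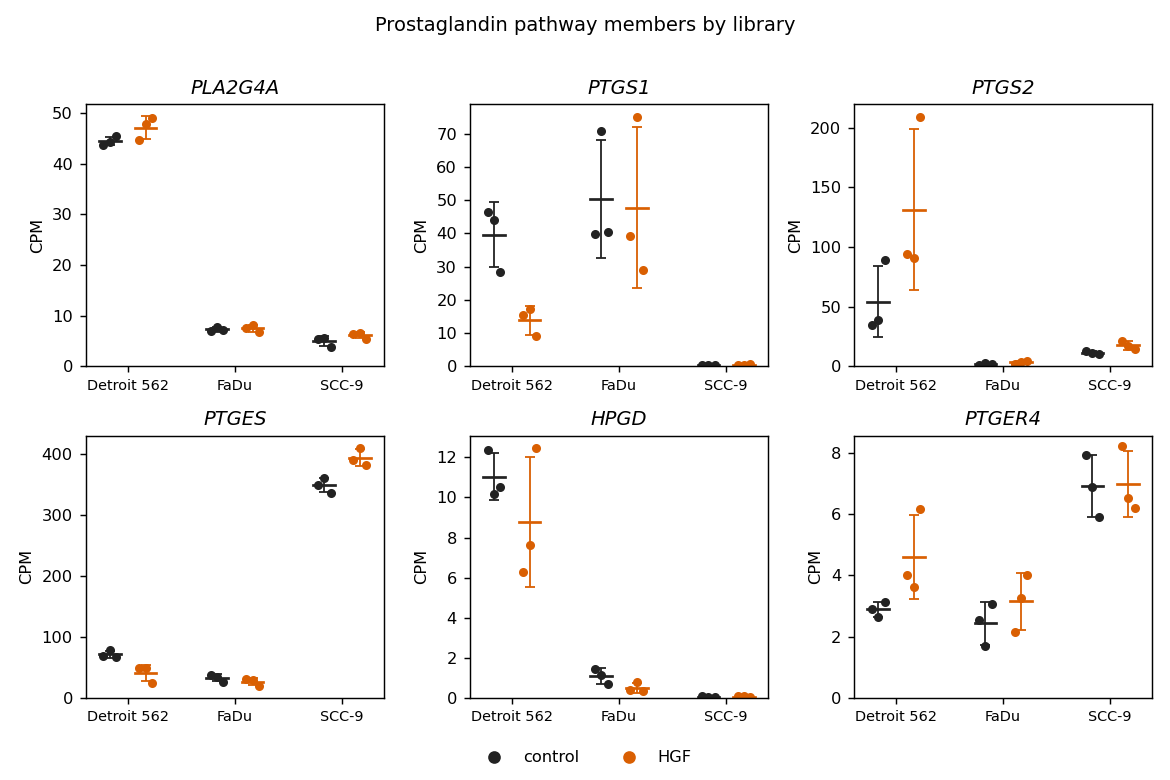
Points are the 3 libraries of each group in the order of their replicate numbers, in CPM, with the mean (line) and SD (bars), for PLA2G4A, PTGS1, PTGS2, PTGES, HPGD and PTGER4 in the 3 lines, black for control and orange for HGF. In Detroit 562 the groups are apart for PTGS1, PTGS2, PTGES and PTGER4, PTGS1 is near 0 in SCC-9, and PTGES there lies between 336 and 410 CPM.

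Among the lipoxygenases, ALOX5 was called lower in Detroit 562. It measured 35.5, 38.9 and 37.9 CPM in control and 23.6, 25.6 and 26.0 CPM in HGF-treated libraries. The replicates lay close together and the groups far apart, so the decrease was small but exceeded the spread (log2 fold change -0.58, SE 0.147, adjusted p = 0.0103), and the gene was called with any 1 library left out. ALOX12 was low and even, from 1.27 to 1.39 CPM in control and from 1.31 to 1.40 CPM with HGF (log2 fold change 0.03). ALOX12B had 3 to 20 counts per library, and its value of -0.38 was called only without HGF 1 (-1.10, adjusted p = 0.0829). ALOX15B had 0 to 2 counts per library in Detroit 562, which leaves no measurable level.

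**Figure D2:**
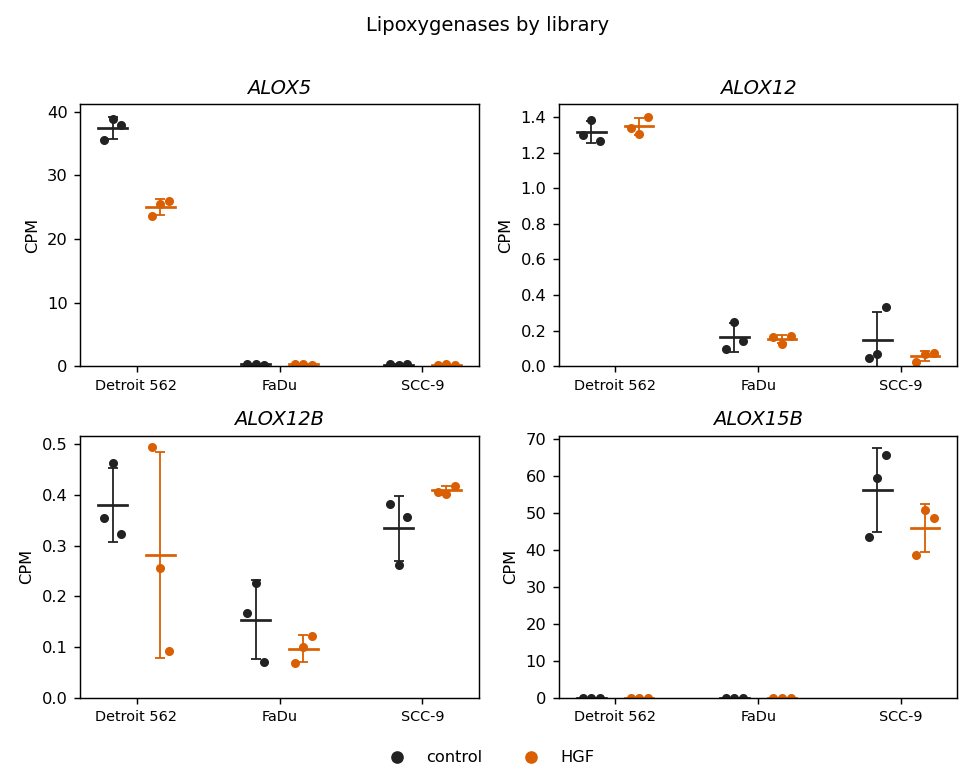
Points are the 3 libraries of each group, in CPM, with the mean (line) and SD (bars), for ALOX5, ALOX12, ALOX12B and ALOX15B, black for control and orange for HGF. ALOX5 is at 23.6 to 38.9 CPM in Detroit 562 and below 0.4 CPM in the other lines, and ALOX15B is at 38.6 to 65.5 CPM in SCC-9 and nearly 0 elsewhere.

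ALOX5 is best known from leukocytes and ALOX12 and PTGS1 from platelets. The 9 leukocyte and platelet markers summed to 1.06 to 1.13 CPM in control and 0.761 to 0.937 CPM in HGF-treated Detroit 562, and none of the 9 reached 1 CPM. PTPRC had at most 3 counts in a library. PF4 had 0 to 1 counts in control libraries and 0 in all 3 HGF-treated ones, so it was at the floor in both. ITGA2B, an integrin gene of platelets, was called lower (log2 fold change -1.27), at 0.530 CPM on average in control and 0.213 CPM with HGF. Detroit 562 was the line with the most ALOX5. The 6 fibroblast markers summed to 30.2 to 54.6 CPM in control and 15.3 to 27.8 CPM with HGF, with COL1A1 (log2 fold change -0.77) and COL1A2 (-1.04) called lower. COL3A1 and DCN were at the floor in both groups, with 0 to 1 counts in control libraries and 0 in all HGF-treated ones. The 4 endothelial markers summed to 1.21 to 2.99 CPM and 0.639 to 1.16 CPM, with VWF (-2.12) called lower. Of the 8 squamous markers, KRT5 (-0.90) and CDH1 (-0.49) were called lower, 0 were called higher and 6 were not called, with a median log2 fold change of -0.10 against -0.0059 over all genes. EPCAM (0.21) and SFN (0.22) were above the control of their number in 3 of 3 pairs and were not called. The part of these movements in the changes above was not tested. Control FaDu had the highest mean PTGS1 of the untreated lines, and there the 9 leukocyte and platelet markers summed to 7.05 to 8.95 CPM. CD14 (4.16 to 6.01 CPM) and ITGA2B (1.47 to 2.29 CPM) were above 1 CPM in it. In control SCC-9 the 9 summed to 9.41 to 11.5 CPM, with 1 of them above 1 CPM in all 3 libraries.

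In FaDu none of the 10 genes was called (0.0259% of all genes were), the groups overlapped for each of them (9.42% of all genes did not overlap), and 1 of 10 had an unadjusted p under 0.05. DESeq2 likewise called 0, with and without its prior. The blocked fit called 1 higher and 1 lower, against 5.60% of all genes (2.00% higher and 3.60% lower). The first was PTGS2, at 1.43, 2.79 and 2.23 CPM in control and 2.20, 3.75 and 4.77 CPM with HGF. The groups overlapped, but each HGF-treated library was above the control of its own number. The log2 fold change was 0.73 (SE 0.469, adjusted p = 0.665), and 0.73 with the block (SE 0.138, adjusted p = 0.00335). The other was HPGD, with 61, 46 and 29 counts in control and 17, 31 and 14 counts with HGF, and a log2 fold change of -1.12 (adjusted p = 0.514, blocked -1.13 with adjusted p = 0.0558). Here each HGF-treated library was below the control of its number, on few counts.

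PTGS1, called lower in Detroit 562, was not called in FaDu. It measured 39.96, 70.7 and 40.3 CPM in control and 39.2, 75.1 and 28.9 CPM with HGF, where the library numbered 2 was the highest of each group and the ranges overlapped widely. The log2 fold change was -0.08 (95% confidence interval -0.76 to 0.60). PTGES was between 26.4 and 37.3 CPM in control and between 19.9 and 31.6 CPM with HGF (-0.29, adjusted p = 0.693), lower in 3 of 3 pairs. PLA2G4A (6.75 to 8.08 CPM over both groups) and PTGER4 (1.68 to 4.02 CPM) overlapped between groups. ALOX5, ALOX12, ALOX12B and ALOX15B had at most 17 counts in any FaDu library.

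In SCC-9 none of the 10 genes was called, as for 0% of all genes, and 1 of 10 had an unadjusted p under 0.05 (DESeq2 called 0 with and without its prior). The blocked fit called PTGS2, against 1.97% of all genes (0.563% higher and 1.41% lower). PTGS2 measured 12.7, 11.2 and 10.5 CPM in control and 21.6, 16.7 and 14.2 CPM with HGF, with each HGF-treated library above all controls. The groups did not overlap for PTGS2, PTGES and ALOX12B, 3 of the 10 genes, against 17.4% of all genes. The log2 fold change of PTGS2 was 0.61 (SE 0.372, adjusted p = 1), and 0.60 with the block (SE 0.0855, adjusted p = 0.00195).

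PTGES was the most abundant gene of the set in this line and lay at 349, 360 and 336 CPM in control and 389, 410 and 382 CPM with HGF. Its HGF-treated libraries were above all controls by a small margin that was not called (log2 fold change 0.17, adjusted p = 1, blocked adjusted p = 0.445). ALOX15B measured 43.6, 59.3 and 65.5 CPM in control and 38.6, 50.7 and 48.5 CPM with HGF. It was lower in 3 of 3 pairs, and the blocked log2 fold change of -0.28 (adjusted p = 0.0392) fell short of the fold threshold. PLA2G4A measured 5.48, 5.64 and 3.90 CPM in control and 6.39, 6.62 and 5.41 CPM with HGF, so the groups overlapped. It was higher in 3 of 3 pairs, and its blocked log2 fold change of 0.30 (adjusted p = 0.0611) was also under the fold threshold. PTGS1 had 12 to 33 counts per library in SCC-9 and HPGD 1 to 3, too few to show a change of moderate size. ALOX5 (6 to 15 counts), ALOX12 (1 to 13) and ALOX12B (11 to 17) were as scarce. PTGER4 lay between 5.92 and 8.23 CPM over both groups (log2 fold change 0.01, 95% confidence interval -0.48 to 0.51).

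Over the 3 lines, PTGS2 was higher with HGF in 9 of 9 same-numbered pairs, which held for 7.72% of all genes tested. PLA2G4A was higher in 8 and PTGER4 in 7 of the 9 pairs, PTGS1 in 3. Whether the responses differed between lines was tested as the difference of the fold changes. Without the block none of the 10 genes passed in any of the 3 tests between lines, and 1 gene (Detroit 562 against FaDu), 2 (Detroit 562 against SCC-9) and 0 (FaDu against SCC-9) had an unadjusted p under 0.05. The share of all genes passing was 0.246%, 0.938% and 0%. DESeq2 without its prior passed 0, 2 (PTGS1 and PTGES) and 0.

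With the block, 3 of the 10 genes differed between Detroit 562 and FaDu, where 19.1% of all genes did, and 4 between Detroit 562 and SCC-9, where 27.0% did. PTGS1 fell further in Detroit 562 than it moved in FaDu, by a log2 difference of -1.40 (adjusted p = 9.87e-05), and than in SCC-9, by -1.99 (adjusted p = 0.00599). The size of the difference from SCC-9 is uncertain. PTGS1 had 12 to 33 counts per library there, and its log2 ratios in pairs 1, 2 and 3 were -0.50, 0.11 and 1.41. The increase of PTGS2 in Detroit 562 exceeded that in FaDu by 0.56 (adjusted p = 0.0336) and that in SCC-9 by 0.69 (adjusted p = 0.000904). For PTGES the differences were -0.55 (adjusted p = 0.0388) and -1.03 (adjusted p = 0.000466), and for PTGER4 the difference from SCC-9 was 0.64 (adjusted p = 0.0517). The 2 tests share the Detroit 562 libraries. No gene of the set differed between FaDu and SCC-9 with the block, where 1.32% of all genes did.

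**Figure D3:**
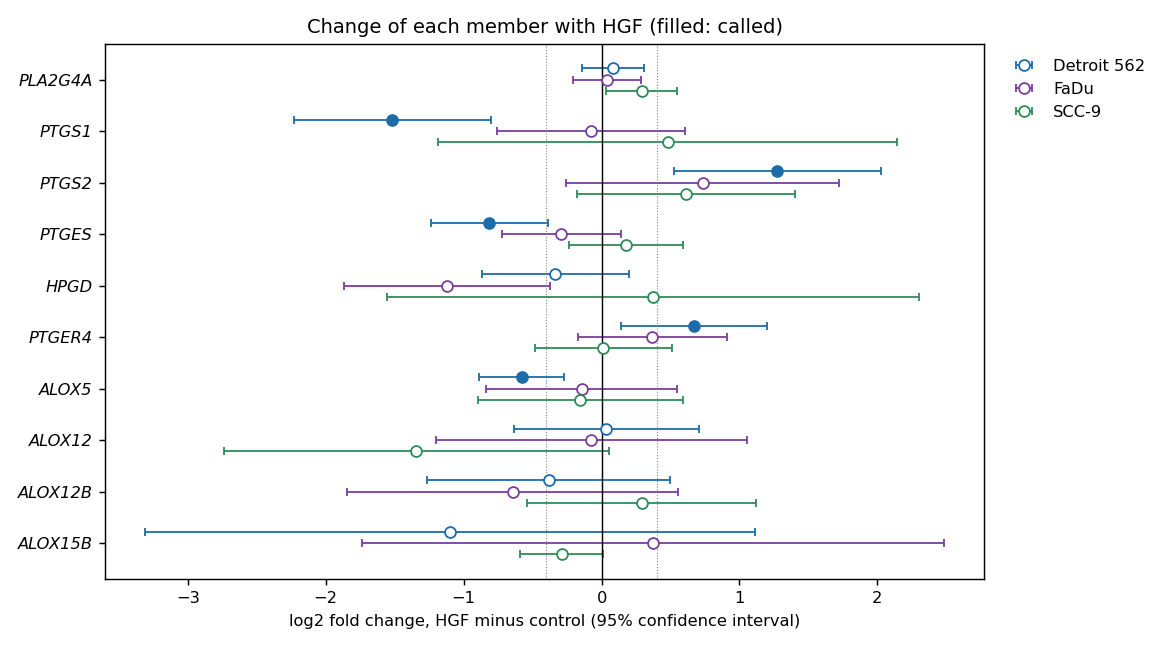
Log2 fold change of HGF-treated over control cells for each of the 10 genes, without the block, with the 95% confidence interval as bars, in blue for Detroit 562, purple for FaDu and green for SCC-9. Filled points were called, dotted lines mark the fold threshold of 0.4, and the 5 filled points are all of Detroit 562, from -1.52 for PTGS1 to 1.27 for PTGS2.

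As for all genes tested, more of the 10 genes were called between untreated lines than with HGF in any line. Between Detroit 562 and FaDu 7 of the 10 genes were called, all higher in Detroit 562, where 61.0% of all genes were called, 31.2% higher and 29.8% lower. Between Detroit 562 and SCC-9 9 were called, 6 of them higher in Detroit 562 (65.4% of all genes, 31.4% higher and 33.9% lower), and between FaDu and SCC-9 8 were called, 3 of them higher in FaDu (64.2%, 30.7% higher and 33.5% lower). The called genes were those without overlap between the control libraries in each comparison, as was so for 74.0%, 80.6% and 78.6% of all genes.

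The cyclooxygenases followed different orders. Untreated FaDu (39.96 to 70.7 CPM) and Detroit 562 (28.3 to 46.5 CPM) overlapped in PTGS1 (log2 difference -0.34, adjusted p = 0.351), whereas SCC-9 had 0.285 to 0.407 CPM. Detroit 562 exceeded SCC-9 by 6.88 on the log2 scale (SE 0.509, adjusted p = 2.09e-09) and FaDu exceeded it by 7.23 (SE 0.510, adjusted p = 1.23e-09). For PTGS2 the order was Detroit 562, SCC-9 and FaDu, and neighbours did not overlap. Detroit 562 was 4.73-fold above SCC-9 (log2 difference 2.24, adjusted p = 4.08e-05), and SCC-9 was 5.34-fold above FaDu (FaDu minus SCC-9 -2.42, adjusted p = 9.19e-05). Over all 6 groups PTGS2 descended from HGF-treated to control Detroit 562, HGF-treated to control SCC-9 and HGF-treated to control FaDu, and of neighbours in that order the 2 FaDu groups alone overlapped.

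PTGS2 and PTGS1 counts therefore stood in very different proportions in the lines. The ratio of PTGS2 to PTGS1 lay between 0.0357 and 0.0553 in control FaDu, between 0.751 and 3.13 in control Detroit 562 and between 31.2 and 39.1 in control SCC-9. With HGF it was 0.0499 to 0.165 in FaDu and 17.5 to 75.3 in SCC-9, the latter on 12 to 33 counts of PTGS1.

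PTGES was highest in SCC-9, which was 4.91-fold above Detroit 562 (Detroit 562 minus SCC-9 -2.30, SE 0.206, adjusted p = 2.40e-08) and 10.7-fold above FaDu (FaDu minus SCC-9 -3.42, SE 0.216, adjusted p = 3.01e-10). HPGD, whose product inactivates the prostaglandin that the PTGES enzyme makes, was lowest in SCC-9 and highest in Detroit 562. It measured 10.2 to 12.4 CPM in control Detroit 562 and 0.681 to 1.45 CPM in control FaDu, and had 3, 2 and 1 counts in control SCC-9. From summed counts Detroit 562 was 228-fold above SCC-9 (95% exact interval 104 to 621) and FaDu 22.4-fold (10.0 to 62.1), intervals that cover counting error only. The 2 genes thus lay at opposite ends in SCC-9, with a PTGES to HPGD count ratio of 4867 to 13175 in control libraries against 5.50 to 7.70 in Detroit 562 and 25.8 to 38.8 in FaDu.

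PLA2G4A was 6.10-fold higher in Detroit 562 than in FaDu (log2 difference 2.61, SE 0.117, adjusted p = 5.41e-12), and FaDu was slightly above SCC-9 (0.54, SE 0.121, adjusted p = 0.000667). That last call was lost without SCC-9 control 3, where the difference was 0.39 and under the fold threshold. PLA2G4A lies next to PTGS2 on chromosome 1, with 148525 bases and 0 genes of the table between them (PTGS2 at chr1:186671791-186680427, PLA2G4A at chr1:186828953-186988981, GRCh38). In Detroit 562 the neighbours took different courses, since PTGS2 rose and the interval for PLA2G4A ended at 0.31. PTGER4 was higher in SCC-9 (5.92 to 7.95 CPM) than in Detroit 562 (2.64 to 3.13 CPM, log2 difference -1.26, adjusted p = 0.000201) or FaDu (1.68 to 3.08 CPM, -1.50, adjusted p = 3.87e-05). Detroit 562 and FaDu overlapped in it (0.24, adjusted p = 0.407).

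The 2 abundant lipoxygenases were each high in 1 line. ALOX5 measured 35.5 to 38.9 CPM in control Detroit 562, 0.258 to 0.380 CPM in FaDu and 0.190 to 0.332 CPM in SCC-9. Detroit 562 exceeded FaDu by 6.81 on the log2 scale (SE 0.219, adjusted p = 1.24e-13), and FaDu and SCC-9 overlapped (0.25, adjusted p = 0.506). ALOX15B, the epithelial lipoxygenase, showed the opposite pattern, with 1821, 2492 and 2567 counts in control SCC-9, 2, 1 and 2 in Detroit 562 and 0, 2 and 1 in FaDu. From the summed counts SCC-9 was 1301-fold above Detroit 562 (95% exact interval 557 to 4008), and against the 3 counts of FaDu the ratio was 2320 (793 to 11252). ALOX12B is 23501 bases from ALOX15B on chromosome 17 with 0 genes of the table between them, and had 11 to 16 counts in control SCC-9 against 1821 or more of its neighbour.

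The other lipoxygenases were low everywhere. ALOX12 had 47 to 55 counts in control Detroit 562 and 2 to 13 in the other lines, and was called higher in Detroit 562 than in FaDu (3.01, SE 0.406, adjusted p = 4.16e-06) and SCC-9 (3.13, SE 0.413, adjusted p = 2.75e-06). ALOX12B was under 0.5 CPM in every library. It was called lower in FaDu than in Detroit 562 (Detroit 562 minus FaDu 1.29, adjusted p = 0.0173) and SCC-9 (FaDu minus SCC-9 -1.11, adjusted p = 0.0375). The second of these calls was lost without FaDu control 3 (-0.76, adjusted p = 0.158) or SCC-9 control 1 (-0.99, adjusted p = 0.103). Without SCC-9 control 3, which held 13 of the 18 counts of ALOX12 in that group, ALOX12 was called higher in FaDu than in SCC-9 (1.39, adjusted p = 0.0430).

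Levels of different genes were compared as CPM per kb of annotated exon, a scale on which reads in introns, which the counting included, add to the level. PTGES was the highest of the 10 genes in each untreated line, with 184 ± 6.45 CPM per kb in SCC-9, 37.6 ± 3.43 in Detroit 562 and 17.2 ± 2.96 in FaDu (mean ± SD, n = 3). In Detroit 562 it was followed by PLA2G4A (15.4 ± 0.303), ALOX5 (10.0 ± 0.463), PTGS2 (9.89 ± 5.46) and PTGS1 (6.86 ± 1.71), and the range of PTGS2 overlapped those of the other 3. In FaDu the next were PTGS1 (8.70 ± 3.05) and PLA2G4A (2.53 ± 0.152), with PTGS2 at 0.392 ± 0.125. In SCC-9 ALOX15B came second at 18.6 ± 3.75, ahead of PTGS2 (2.09 ± 0.204), PTGER4 (1.95 ± 0.286) and PLA2G4A (1.74 ± 0.333), which lay within each other's spread.

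**Figure D4:**
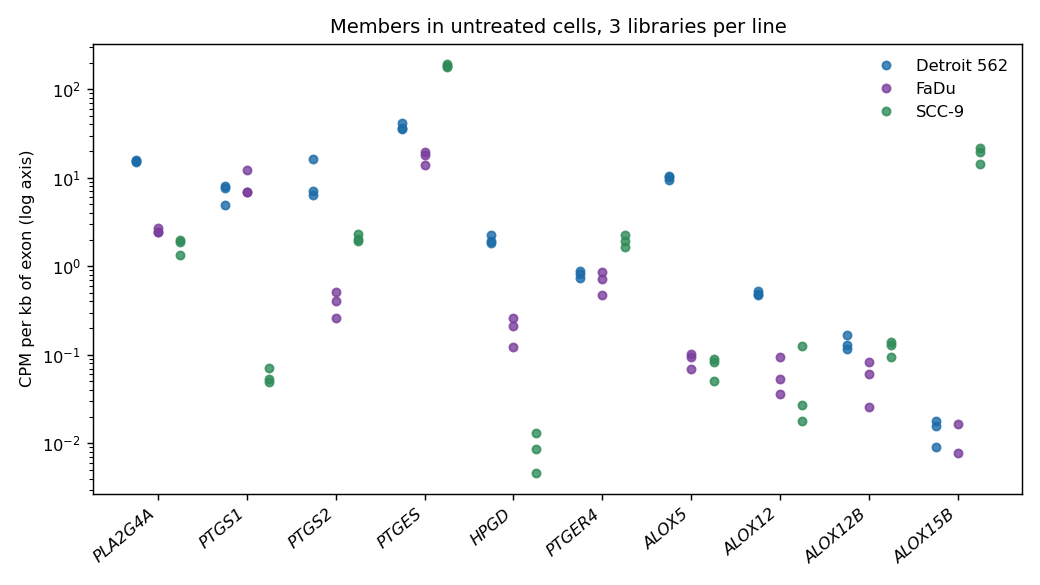
Each point is 1 untreated library, in CPM per kb of exon on a log axis, for the 10 genes in Detroit 562 (blue), FaDu (purple) and SCC-9 (green), with values of 0 left out. PTGES is highest in each line, PTGS1 and HPGD are lowest in SCC-9, ALOX5 is high in Detroit 562 alone and ALOX15B in SCC-9 alone.

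Glucocorticoids are known to repress PTGS2 and PTGES, and the medium of SCC-9 alone held hydrocortisone. Of 7 genes that glucocorticoids induce, 6 were called higher in untreated SCC-9 than in Detroit 562 and the same number than in FaDu, all but SGK1. Of all genes, 33.9% and 33.5% were called higher in SCC-9. The largest contributor, FKBP5, was 3.06 lower on the log2 scale in Detroit 562 than in SCC-9 (adjusted p = 4.80e-14). The 7 genes summed to 565 to 677 CPM in control SCC-9, 120 to 145 CPM in Detroit 562 and 87.8 to 93.7 CPM in FaDu. PTGES was highest in control SCC-9, at 349 CPM on average against 71.0 in Detroit 562 and 32.6 in FaDu. PTGS2 in control SCC-9 (11.4 CPM) was below Detroit 562 (54.2 CPM) and above FaDu (2.15 CPM). Whether hydrocortisone acted on either gene was not tested. The line and its medium cannot be told apart in the differences between SCC-9 and the other lines.

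Around the 10 genes, a wider list of 57 genes of the same pathway was examined, of which 54 were in the table and 42 passed the filter. In Detroit 562, 2 of the 42 were called higher with HGF and 10 lower, against 6.15% and 11.7% of all genes, and their median log2 fold change was -0.25. Without 1 library the counts ranged from 1 to 2 higher and 6 to 12 lower, with 6 lower without control 1, control 2 or HGF 3. Without both libraries numbered 3 they were 2 and 10. In FaDu and SCC-9 0 were called by edgeR, with 2 of 42 under an unadjusted p of 0.05 in each line.

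Among 13 phospholipases and lipases that release fatty acids, 1 was called higher and 4 lower in Detroit 562. The higher one was MGLL, monoacylglycerol lipase, which frees arachidonic acid from 2-arachidonoylglycerol. It measured 29.6, 33.0 and 53.1 CPM in control and 78.9, 74.3 and 106 CPM with HGF, without overlap (log2 fold change 1.17, SE 0.230, adjusted p = 0.00303). The lower ones were the calcium-independent phospholipase PLA2G6 (-1.27, adjusted p = 0.00700), FAAH, which hydrolyses the endocannabinoid anandamide (-0.65, adjusted p = 0.00760), PLA2G16 (-0.54, adjusted p = 0.00806) and PLA2G4F (-0.83, adjusted p = 0.0785). The PLA2G4F call was lost without either of controls 1 and 2 or of HGF libraries 2 and 3, with adjusted p values from 0.108 to 0.241.

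Of 7 other prostanoid synthases, AKR1C3, a prostaglandin F synthase, was called. It measured 122, 130 and 51.9 CPM in control and 43.2, 46.8 and 21.0 CPM with HGF (log2 fold change -1.45, SE 0.410, adjusted p = 0.0176), with the library numbered 3 the lowest of each group. AKR1C3 has similar paralogs whose reads could also align to it, so its level is uncertain. Of 6 genes of transport and inactivation 2 were called lower, SLCO2A1, the prostaglandin uptake transporter (-1.15, SE 0.274, adjusted p = 0.00744), and PTGR1, a reductase of prostaglandin metabolites (-0.51, adjusted p = 0.0301, with overlap between groups). The PTGR1 call was lost without control 1, control 2 or HGF 3 (adjusted p from 0.113 to 0.163). None of 4 other prostanoid receptors was called, and 0 of the 4 had an unadjusted p under 0.05.

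In the lipoxygenase branch, 1 of 12 genes was called higher and 3 lower. ALOX15, a 15-lipoxygenase, measured 1.72, 1.44 and 0.970 CPM in control and 0.445, 0.568 and 0.518 CPM with HGF (log2 fold change -1.44, SE 0.319, adjusted p = 0.00534). ALOXE3, which acts after ALOX12B in the skin, was higher by 1.12 (adjusted p = 0.0244) at 14 to 66 counts, and lost its call without control 2 (adjusted p = 0.112) or HGF 3 (0.101). The other 2 were EPHX2, soluble epoxide hydrolase (-0.80, adjusted p = 0.0544), and LTC4S, leukotriene C4 synthase, at 1 to 20 counts (-1.38, adjusted p = 0.0851). Both overlapped between groups and lost their calls without control 1, control 2 or HGF 3, and LTC4S also without HGF 2 (adjusted p from 0.157 to 0.367).

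**Figure D5:**
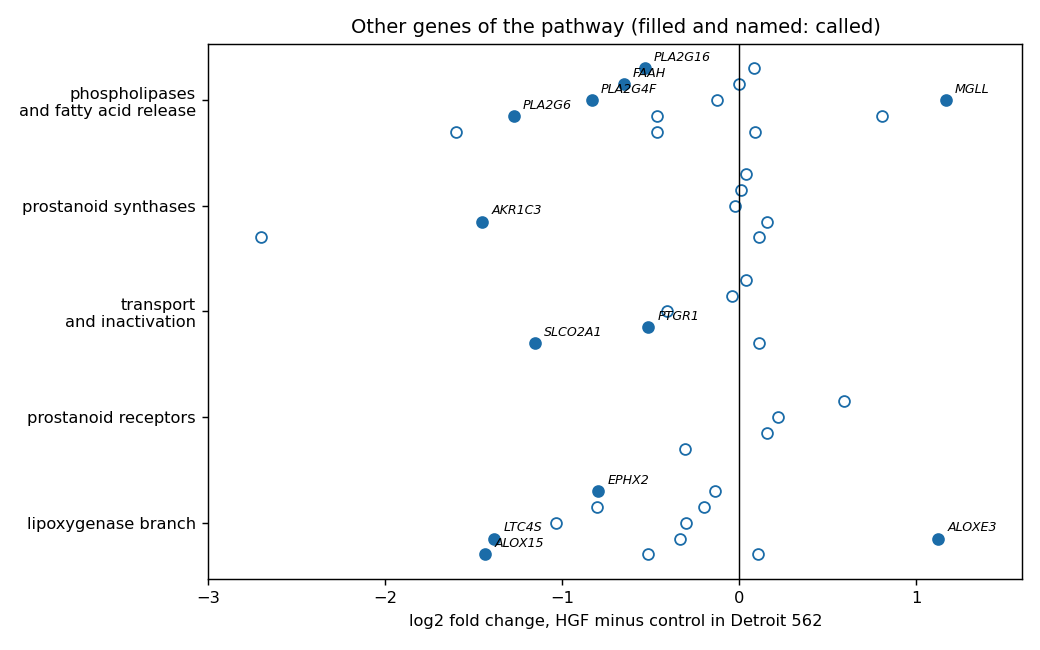
Each point is 1 of the 42 other pathway genes tested, placed by its log2 fold change with HGF in Detroit 562 and by its role, with points spread vertically for legibility. Filled points with names were called, 2 to the right of 0 (MGLL and ALOXE3) and 10 to the left.

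The blocked fit called 2 of the 42 higher and 14 lower in Detroit 562, against 21.5% of all genes (7.13% higher and 14.4% lower). It called 5 of them for FaDu, where 5.60% of all genes were called, and 2 for SCC-9, where 1.97% were. Those in FaDu, named after their values were seen, were MGLL (0.64, adjusted p = 0.00688) and the exporter ABCC4 (0.41, adjusted p = 0.000873), which were higher, and PLA2G6 (-0.48, adjusted p = 0.0316), AKR1C3 (-0.70, adjusted p = 0.00387) and EPHX2 (-0.62, adjusted p = 0.0199), which were lower. Those in SCC-9 were PLA2G16 (-0.50, adjusted p = 0.00697) and PTGIS, prostacyclin synthase (-1.42, adjusted p = 0.0163). In each line the blocked fit also called PTGS2 higher.

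Between untreated lines, 17 of the 42 were called higher and 8 lower in Detroit 562 than in FaDu, where 31.2% of all genes were called higher and 29.8% lower. In Detroit 562 against SCC-9 the counts were 16 and 19 (31.4% and 33.9% of all genes), and in FaDu against SCC-9 they were 13 and 17 (30.7% and 33.5%). PTGER2, the gene of the EP2 receptor, was at 32.4 to 36.6 CPM in SCC-9 and at most 0.352 CPM in the other lines (Detroit 562 minus SCC-9 -6.94, adjusted p = 1.43e-13, FaDu minus SCC-9 -7.34, adjusted p = 1.14e-13). SCC-9 thus held the higher levels of both PTGER4 and PTGER2, whose products respond to prostaglandin E2. SLCO2A1 was at 29.6 to 40.1 CPM in SCC-9, 2.37 to 3.83 CPM in Detroit 562 and 0.101 to 0.143 CPM in FaDu (FaDu minus SCC-9 -8.08, adjusted p = 3.62e-12, Detroit 562 minus FaDu 4.57, adjusted p = 2.23e-08).

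Detroit 562 stood out in PLA2G16, at 90.0 to 116 CPM against 4.44 to 5.77 CPM in FaDu (4.36, adjusted p = 3.20e-13). CYSLTR1, a receptor for the leukotrienes that the ALOX5 route yields, had 283 counts in the 3 control libraries of Detroit 562 and 3 in those of FaDu, a ratio of 101 (95% exact interval 34.2 to 492). PLA2G4F had 238 counts in Detroit 562 and 2 in SCC-9, a ratio of 126 (34.5 to 1045). PLA2G2A, a secreted phospholipase, had 36 counts in SCC-9 and 0 in the other lines, a ratio of 11.3 to Detroit 562 and 12.1 to FaDu against a floor of 3 counts over the group. With the counting error of SCC-9 included, the exact 95% lower limits were 8.76 and 9.37.

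The genes whose pattern over the 18 libraries was most like that of PTGS2, by Pearson's r of log2 CPM, were OCIAD2 (0.988), ARHGAP10 (0.987), TEX10 (0.984), CD44 (0.983) and KIAA1549L (0.983). The 18 points are 6 groups of 3 libraries in 3 lines, so the likeness rests mainly on the differences between lines.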

How the data were processed

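The 18 libraries were made with a stranded mRNA kit. Per the labels and the study's methods, the authors demultiplexed reads with bcl2fastq 2.20.0.422, trimmed them with cutadapt, aligned them with STAR 2.5.2b to GRCh38.p12 with GENCODE 28, and counted with bedtools the reads overlapping each gene on its strand, so intron reads are included and reads in overlapping genes count more than once. The deposited values are raw counts, without normalization.

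Rows that repeat an identifier (18, pseudoautosomal copies) were left out. The analysis used edgeR 4.0.16 in R 4.3.3, with filterByExpr on the 6 groups, TMM factors and 1 quasi-likelihood model of the 18 libraries. CPM used TMM library sizes. Calls needed an adjusted p under 0.1 and a log2 fold change of 0.4 or more in size, and interactions the adjusted p alone. Exon lengths came from GENCODE 44. The fit was tested on simulated data. Intervals of count ratios are exact 95% ones and cover counting error only. Alternatives were a replicate block, DESeq2 1.42.0 (with and without its prior), its size factors, no filter, no minimum fold change, each line alone, and each library left out.

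Control and HGF libraries of the same number deviated together from their group means (across genes, r of 0.295, 0.161 and 0.454 in Detroit 562, 0.376, 0.441 and 0.563 in FaDu, 0.332, 0.204 and 0.286 in SCC-9, against means of -0.144, -0.227 and -0.136 for different numbers). Deviations cancel within a group, so the means for different numbers follow largely from the same-number values and are no separate evidence. In FaDu and SCC-9 the highest single r for different numbers (0.139 and -0.0794) was below every same-number r. In Detroit 562 it was 0.218, above the 0.161 of pair 2. The numbers were used as pairs in the blocked fit, although the labels do not state a pairing.

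The members and lists were chosen with earlier results of these data known. The 10 genes are named in each comparison, wider pathway genes where called with HGF, and the 3 with the largest difference between each 2 untreated lines. Promoter windows are RefSeq sequence (GRCh38.p14).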

Additional observations from a re-analysis of the deposited data

Results flagged for a closer look

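The results below are differences between lines in the response to HGF, on the log2 scale. With the replicate number as a block, 7 such differences passed an adjusted p below 0.1 in edgeR's quasi-likelihood interaction test. Without the block 0 of them passed. Of the 7, 3 were between Detroit 562 and FaDu, where 19.1% of all genes tested passed with the block. The other 4 were between Detroit 562 and SCC-9, where 27.0% of all genes did. Whether the set exceeded these shares was not tested.

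The fall of PTGS1 in Detroit 562 differed from its value in FaDu by -1.40 (adjusted p = 9.87e-05, without the block -1.44 and 0.278) and from that in SCC-9 by -1.99 (adjusted p = 0.00599, without the block -1.996 and 0.288). PTGS1 was lower in 3 of 3 pairs in Detroit 562. In SCC-9 it had 12 to 33 counts per library, and its fold change ranged from -0.16 to 0.73 with 1 library left out.

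PTGS2 rose more in Detroit 562 than in FaDu by 0.56 (adjusted p = 0.0336, without the block 0.54 and 0.748) and than in SCC-9 by 0.69 (adjusted p = 0.000904, without the block 0.66 and 0.560). It was higher in 3 of 3 pairs in each line.

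PTGES differed between Detroit 562 and FaDu by -0.55 (adjusted p = 0.0388, without the block -0.52 and 0.498) and between Detroit 562 and SCC-9 by -1.03 (adjusted p = 0.000466, without the block -0.99 and 0.143). PTGER4 differed between Detroit 562 and SCC-9 by 0.64 (adjusted p = 0.0517, without the block 0.66 and 0.372).

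PTGES was lower with HGF in 3 of 3 pairs in FaDu and higher in 3 of 3 pairs in SCC-9. This difference of -0.47 passed neither test (adjusted p = 0.99987, blocked 0.254).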

How the results depend on the processing

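Counts of the 10 genes called depended most on the replicate block, which called 2 in FaDu, 1 in SCC-9, 3 in the difference of responses between Detroit 562 and FaDu and 4 in that between Detroit 562 and SCC-9, where the model without it called 0. The block changed no other call of the 10 genes. Over all genes it likewise raised the share called, from 0.0259% to 5.60% in FaDu and from 0% to 1.97% in SCC-9. The share rose from 0.246% to 19.1% for Detroit 562 against FaDu and from 0.938% to 27.0% for Detroit 562 against SCC-9. For Detroit 562 against SCC-9, DESeq2 without its prior gave 2 and leaving out both Detroit 562 libraries numbered 3 gave 1 (PTGES). DESeq2's size factors, DESeq2, no filter, no minimum fold change and each line alone kept the other counts within 1.5 times. Fitting each line alone gave 24 of the 30 fold changes, since some genes no longer passed the filter.

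When 1 library at a time was left out, the count ranged from 4 to 6 in Detroit 562, 0 to 1 in the response of Detroit 562 against SCC-9 (1 without Detroit 562 control 3, PTGES) and 7 to 8 in untreated FaDu against SCC-9, and was constant elsewhere. Values that changed sign when a library was left out were uncalled ones. They ranged from -1.10 to 0.01 (0.0059) for ALOX12B in Detroit 562, in FaDu from -0.56 to 0.25 for PTGS1, -0.02 (-0.018) to 0.12 for PLA2G4A, -0.41 to 0.19 for ALOX5, -0.34 to 0.36 for ALOX12 and -0.16 to 1.24 for ALOX15B, and in SCC-9 from -0.16 to 0.73 for PTGS1, -0.50 to 0.12 for ALOX5 and -0.12 to 0.13 for PTGER4. Without both Detroit 562 libraries numbered 3, added after the values were seen, ALOX12 was -0.02 (-0.020). The cause of these changes was not tested. Genes at a few counts, such as ALOX15B outside SCC-9 and HPGD in SCC-9, are limited by depth.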
